A study of Mus musculus with 16 samples.

Results

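The 891 promoters described here carried an RNA polymerase II (Pol II) peak in Atxn7l3-/- mouse embryonic stem cells (mESCs) and had no Pol II peak nearby in wild-type mESCs. They were chosen by the presence and absence of called peaks in these 2 lists, among the 20807 autosomal protein-coding genes of the GENCODE M21 annotation. A gene was a member when a peak of the knockout (KO) Pol II list lay within 1000 bp of its transcription start site (TSS) and no peak of the wild-type (WT) Pol II list lay within 5000 bp of it. The members were 4.28% of all autosomal genes and 7.10% of the 12542 genes with no WT peak in that distance. Because the rule used the Pol II lists of mESCs, their values at the members are a description. The H2Bub1 lists and the Pol II lists of fibroblasts were not used by the rule.

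USP22, USP27X and USP51 are ubiquitin proteases that act on histone H2B, and ATXN7L3 is the adaptor that makes them active. Monoubiquitylated H2B (H2Bub1) is laid down behind transcribing Pol II and lies mainly over the first part of active gene bodies. Pol II starts at promoters, of which many in mammals are rich in the dinucleotide CpG, and often pauses shortly after the start before it moves into the gene.

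To relate H2Bub1 to Pol II with and without this adaptor, the study performed chromatin immunoprecipitation and sequencing with an anti-RPB1 antibody, which recognises the largest Pol II subunit, and with an anti-H2Bub1 antibody. The cells compared were Atxn7l3+/+ (WT) and Atxn7l3-/- (KO) mESCs and WT and KO mouse embryonic fibroblasts (MEFs), all on a DBA/2 x C57BL/6 background. The mESCs grew with leukaemia inhibitory factor and the kinase inhibitors PD0325901 and CH99021, at first on feeder cells and then without them. The MEFs came from E10.5 embryos, and the deletion is constitutive, so that KO cells lacked the adaptor throughout their life. There was 1 library per group in each of the 8 groups, so the differences below could not be set against a spread between replicates, and none carries a p-value. The 95% intervals cover counting error over promoters only, and genes of 1 library are not replicates. The lists held from 11963 peaks (Pol II, KO mESCs) to 48952 peaks (H2Bub1, KO mESCs), the WT mESC Pol II list held 17074, and the read depth of the libraries is unknown. The promoter of Atxn7l3 itself, which lies upstream of the deleted exons, carried Pol II in all 4 lists, with folds of 3.61 and 3.71 in WT and KO mESCs and 20.9 and 23.4 in WT and KO MEFs. It therefore does not check the genotype.

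The labelled cell types were compared with their marker genes. Of 8 pluripotency genes, 6 had Pol II at the promoter in both mESC libraries, among them Sox2 (WT fold 7.33, KO fold 9.41) and Pou5f1 (5.01 and 3.55), and Esrrb and Dppa3 had none in either. None of 12 fibroblast genes, which also mark feeder cells, had a promoter peak in either mESC list. All 12 had a promoter peak in WT MEFs, where Col3a1 reached a fold of 49.2 and Col1a2 43.3. None of the genes on the pluripotency, fibroblast, mesoderm, primitive endoderm, germline and 2-cell-like lists used here was among the 891 members. The members included 3 genes of the marker lists. They were Tfap2c, a trophectoderm and germ cell transcription factor (KO fold 2.97), Dnmt3b, a de novo DNA methyltransferase of the primed epiblast (3.62), and Olig2, a factor of neural progenitors (4.14). Each was the only member of its list, of 8 trophectoderm, 6 primed epiblast and 6 neuroectoderm genes. Of the same lists, Pou3f1 and Sox4 (primed epiblast) and Sox1 (neuroectoderm) had Pol II in WT mESCs only.

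Promoters of members with a high KO fold show what was selected. For each gene the 250 bases that end at the TSS are given from 5′ to 3′ on the strand of the gene, read from the GRCm38 genome, in lower case with each CpG in capitals. The first 3 are CpG-rich promoters: Grik3 (plus strand, chr4:125490451-125490700, KO fold 6.81), Susd6 (plus strand, chr12:80790261-80790510, 6.39) and Ptgfrn (minus strand, chr3:101110278-101110527, 6.28).
Grik3: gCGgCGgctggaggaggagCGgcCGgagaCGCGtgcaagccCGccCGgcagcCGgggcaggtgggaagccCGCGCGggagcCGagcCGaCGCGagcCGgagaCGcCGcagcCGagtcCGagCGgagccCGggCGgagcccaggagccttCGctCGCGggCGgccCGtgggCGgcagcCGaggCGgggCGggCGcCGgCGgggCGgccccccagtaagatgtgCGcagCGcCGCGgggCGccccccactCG
Susd6: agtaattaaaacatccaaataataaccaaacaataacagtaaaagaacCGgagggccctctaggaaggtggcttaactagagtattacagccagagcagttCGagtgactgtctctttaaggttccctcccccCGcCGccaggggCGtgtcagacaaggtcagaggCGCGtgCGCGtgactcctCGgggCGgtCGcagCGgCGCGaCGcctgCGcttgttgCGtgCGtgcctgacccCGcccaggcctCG
Ptgfrn: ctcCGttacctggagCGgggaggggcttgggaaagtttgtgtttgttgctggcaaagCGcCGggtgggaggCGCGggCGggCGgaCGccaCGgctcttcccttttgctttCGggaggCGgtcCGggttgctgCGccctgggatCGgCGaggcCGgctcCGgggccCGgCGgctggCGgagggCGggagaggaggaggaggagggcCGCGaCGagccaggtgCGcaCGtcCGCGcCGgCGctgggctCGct

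These 3 stretches held 43, 21 and 32 CpGs. Of the members outside the CpG-rich class, the highest fold was at Hspb8 (minus strand, chr5:116422864-116423113, KO fold 7.11), with 10 CpGs in the same length.
Hspb8: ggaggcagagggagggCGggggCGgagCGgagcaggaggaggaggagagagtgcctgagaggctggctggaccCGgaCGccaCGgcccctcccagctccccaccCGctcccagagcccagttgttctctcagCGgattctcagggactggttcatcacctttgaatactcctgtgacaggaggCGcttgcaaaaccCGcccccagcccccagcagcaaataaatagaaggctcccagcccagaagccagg

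Members can share a promoter. The region between the TSSs of Adam9, on the minus strand, and Tm2d2, on the plus strand, is 285 bases long (chr8:25016927-25017211, shown on the plus strand). A single KO peak with a fold of 5.80 made both genes members.
Adam9 and Tm2d2: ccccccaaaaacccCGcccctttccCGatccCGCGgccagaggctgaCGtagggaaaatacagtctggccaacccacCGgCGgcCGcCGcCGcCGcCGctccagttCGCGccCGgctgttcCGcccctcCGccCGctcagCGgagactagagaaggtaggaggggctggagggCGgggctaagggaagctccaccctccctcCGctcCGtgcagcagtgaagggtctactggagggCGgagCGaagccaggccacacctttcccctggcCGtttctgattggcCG

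The 891 members lay at 820 distinct KO peaks. Of these peaks, 753 belonged to 1 member, 63 to a pair of members and 4 to 3 or more, so that 138 members shared their peak with another member and were not independent. A divergent protein-coding partner with its TSS within 1000 bp was present at 86 members, and the partner was itself a member for 85 of them. A TSS of a non-coding gene lay within 1000 bp of 119 members, and Pol II at these cannot be assigned to the coding gene alone.

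The KO peaks at the members were low and narrow. The fold, which is the pileup at the summit over the local background, had a median of 3.87 (quartiles 3.47 and 4.34, range 2.36 to 7.89). At the 5663 promoters with a peak in both genotypes, named shared promoters below, the KO fold had a median of 4.82 and reached 39.6. Only 89 of the 891 members exceeded the shared median, 67 had a fold of at least 5 and 46 a fold under 3. The median -log10 q was 5.22 at the members and 9.57 at the shared promoters, and 819 members had a -log10 q of at least 3 and 50 of at least 10. The median peak width was 378 bp at the members and 624 bp at the shared promoters.

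**Figure D1:**
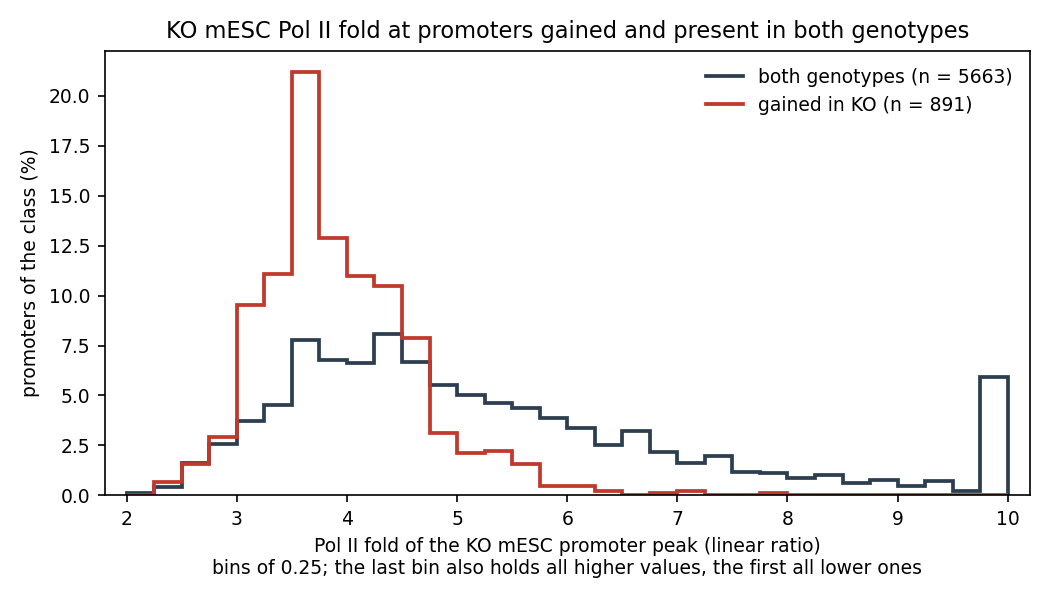
Distribution of the KO mESC Pol II fold, a linear ratio, over the 891 gained promoters and the 5663 promoters with a peak in both genotypes, in percent of each class. The gained promoters end at 7.89, while 312 shared promoters have a fold of at least 10.

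The summits lay close to the start sites. The median summit lay 81.0 bp downstream of the TSS at the members and 73.0 bp downstream at the shared promoters, and the KO peak covered the TSS itself at 590 members. The summit was inside the window of 1000 bp on either side at 869 members. The nearest WT peak was at a median distance of 38.9 kb from the TSS and lay over 100000 bp away at 213 members, while 120 members had a WT peak between 5000 and 10000 bp. Just inside the promoter limit were Scarb2 (KO peak 985 bp from the TSS) and Bicdl1 (989 bp), and just outside it Txlnb (1007 bp) and Slc43a1 (1017 bp). Just inside the WT limit were Gm10570 (nearest WT peak 5074 bp away) and Ppp1r9b (5083 bp), and just outside it Calhm2 (4946 bp) and Arcn1 (4890 bp). The class is part of a list difference in both directions, since 1481 promoters carried Pol II in WT mESCs with no KO peak within 5000 bp, 1.66 times as many. The WT fold at these WT-only promoters had a median of 3.59. When the longer WT list was reduced to the 11963 strongest peaks, the number in the KO list, the gained promoters numbered 1443, of which 891 were the members. The KO list was left whole in this setting, so that every member stayed gained by construction and the number could not fall.

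The highest KO fold belonged to Plxna1, a receptor for semaphorins in axon guidance. Its KO fold was 7.89, and the nearest WT peak lay 47340 bp from its TSS. The gene had Pol II in both MEF libraries as well, with folds of 15.2 in WT and 19.3 in KO. In mESCs H2Bub1 covered 80.9% of its gene body in WT and 85.7% in KO, so that this gene was marked along most of its length in both genotypes.

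Hspb8, which encodes a small heat shock protein, had a KO fold of 7.11 and H2Bub1 over 38.3% of the gene body in WT and 100% in KO mESCs. In MEFs its Pol II folds were 16.1 and 15.6 in WT and KO. Msc, which encodes the basic helix-loop-helix repressor musculin, had a KO fold of 7.10 and H2Bub1 over 65.2% and 100% of the gene body in WT and KO mESCs. It had neither Pol II at the promoter nor H2Bub1 in either MEF genotype, and its nearest WT mESC peak was 445902 bp from the TSS. Grik3, a subunit of kainate-type glutamate receptors, had a KO fold of 6.81 and likewise no Pol II and no H2Bub1 in MEFs. Its gene body was covered by H2Bub1 over 9.72% in WT and 67.6% in KO mESCs. Msc and Grik3 were the only 2 of the 20 members with the highest KO fold that had no Pol II at the promoter in either MEF library.

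Among the next members, Susd6 had a KO fold of 6.39 and H2Bub1 over 18.1% of the body in WT and 59.3% in KO mESCs. Ptgfrn had a fold of 6.28 and H2Bub1 over 27.4% and 77.7%. For both, MEF Pol II was present, with folds of 20.9 in WT and 16.1 in KO at Susd6 and 13.8 and 11.9 at Ptgfrn. Me1, the cytosolic malic enzyme, had a KO fold of 6.17 and small H2Bub1 shares of 1.53% and 3.99%. Camkk2, a kinase upstream of AMPK, had a fold of 5.70 and shares of 27.4% and 56.0%, and Smyd2, a lysine methyltransferase, a fold of 5.68 and shares of 46.9% and 72.0%. Tcf7l2, the transcriptional effector of Wnt signalling, had a fold of 5.68 and shares of 1.62% and 33.7%.

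Adam22 (KO fold 6.21) and Bhlhe22, a neural basic helix-loop-helix factor (5.72), had Pol II in WT MEFs, with folds of 5.27 and 6.34, and none within 5000 bp in KO MEFs, the reverse of their state in mESCs. Snx7, a sorting nexin, had a KO fold of 5.72 and the highest MEF folds of the 20, 26.5 in WT and 37.0 in KO. Of the 20 members with the highest KO fold, at 19 peaks, 16 had MEF Pol II in both genotypes, 16 had a CpG-rich promoter, and all 20 had more of the gene body under H2Bub1 in KO than in WT mESCs. Over all 891 members these shares were 85.2%, 72.3% and 91.2%, and over all genes 50.8%, 42.5% and 54.2%. The last value includes genes with no H2Bub1 in either mESC library, 34.8% of all genes, which cannot have more in KO. In 3 of the 20 no H2Bub1 was called in WT mESCs. The cut at 20 fell in a tie at a fold of 5.68, and a gene outside the CpG-rich class with that fold was left out.

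**Figure D2:**
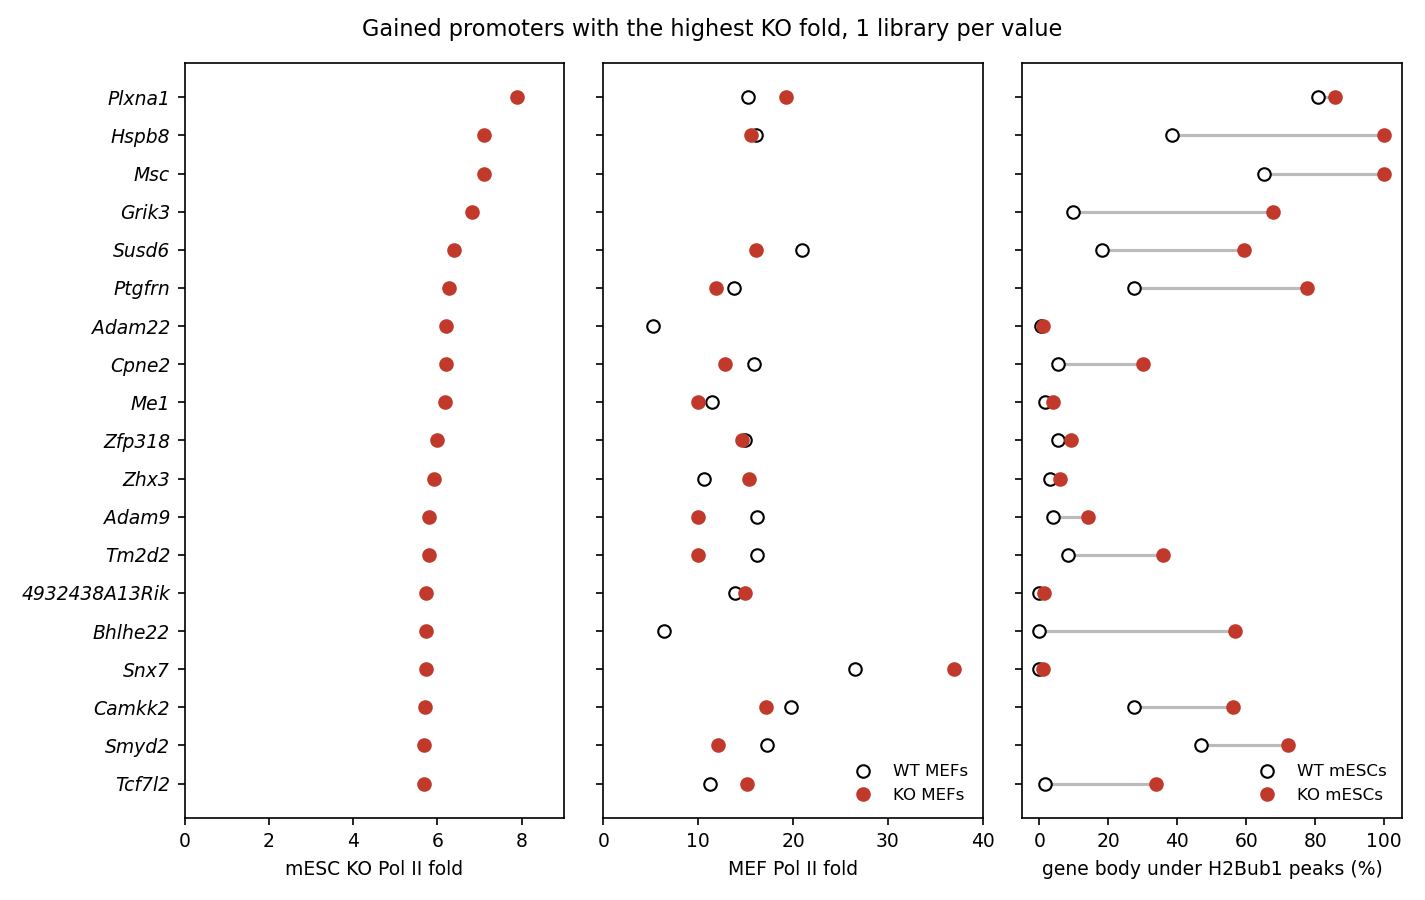
Shown are 19 of the 20 gained promoters with the highest KO fold, with the mESC KO Pol II fold, the MEF Pol II folds of WT (open) and KO (filled), and the percent of the gene body under H2Bub1 peaks in WT and KO mESCs, each from 1 library. Msc and Grik3 have no MEF value, Adam22 and Bhlhe22 have a WT MEF value only, and all 19 have the KO point of H2Bub1 to the right of the WT point.

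The families of the members were counted among the genes that could have been called, those with no WT peak within 5000 bp, where 7.10% of all genes were members. These counts use the same contrast as the rule, were not tested, and the lists were drawn up by gene symbol. WT-only promoters are outside these counts, and over all genes they outnumbered the members, 1481 against 891. Genes of Rab and Arf vesicle trafficking had 10 WT-only promoters and 15 members of 51 such genes, 29.4% (95% interval 17.5 to 43.8). The highest folds were those of Rab3gap2 (4.63), a subunit of an exchange factor for RAB18, of the small GTPases Rab10 (4.34) and Rab23 (4.27), and of Rabgef1 (4.23), an exchange factor for RAB5. At all 4 H2Bub1 covered more of the gene body in KO than in WT mESCs, for example 13.2% in WT and 80.2% in KO at Rabgef1 and 0.756% and 9.02% at Rab3gap2. All 4 had Pol II in both MEF libraries, whereas Rab15 of the same list had a promoter peak in WT MEFs only and Rab39 in neither.

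Subunits and assembly factors of the respiratory chain had 17 WT-only promoters and 8 members of 33 genes, 24.2% (11.1 to 42.3). The leading members were Atp5g3, which encodes the ring subunit c of ATP synthase (KO fold 5.52), Ndufc2 (4.32) and Ndufb2 (4.14) of complex I and Uqcrfs1, the Rieske protein of complex III (4.30). Ndufc2 was under H2Bub1 over 34.9% of its body in WT and 100% in KO mESCs, and Atp5g3 over 33.2% and 83.8%. Mitochondrial ribosomal proteins had 9 WT-only promoters and 4 members of 21 genes, 19.0% (5.45 to 41.9), among them Mrps9 (5.07) and Mrps33 (4.07). Proteasome genes had 6 WT-only promoters and 3 members of 16 genes, 18.8% (4.05 to 45.6), Psmb2 (4.71), Psmd1 (4.53) and Psma1 (3.55). The intervals of these lists included the 7.10% of all such genes. Splicing factors had 5 WT-only promoters and 4 members of 12 genes, 33.3% (9.92 to 65.1), namely Prpf8 (4.42), Prpf31 (4.34), Sf3a3 (4.26) and Sf3b6 (4.26). Of these, Prpf31 and Sf3a3 had less H2Bub1 in KO than in WT mESCs, 34.8% against 48.8% of the gene body and 11.8% against 24.9%. Genes with Pol II in both genotypes could not be members, and these were 46 of the 67 splicing genes and 44 of the 100 respiratory chain genes.

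Signalling lists included the TGF-beta and BMP pathway, with 3 WT-only promoters and 8 members of 37 genes, 21.6% (9.83 to 38.2). These were the type I receptors Acvr1b (KO fold 4.67), Acvr1 (4.34) and Acvrl1 (3.73), the BMP antagonist Chrd (4.10), the inhibitory Smad6 (3.94), the co-receptor Tgfbr3 (3.93) and the ligands Gdf11 (3.75) and Tgfb1 (3.73). Acvr1b was under H2Bub1 over 25.8% of its body in WT and 67.1% in KO mESCs, Smad6 over 41.2% and 93.5%, and Chrd over 18.8% and 19.3%. At Acvrl1 and Tgfb1 the cover was instead lower in KO, with 9.23% and 1.32% in WT and none in KO. The MAP kinase list had 9 WT-only promoters and 6 members of 33 genes, 18.2% (6.98 to 35.5), with the exchange factor gene Sos2 (4.26) among them. The count includes Dusp11 (5.13), matched by its symbol, which encodes a phosphatase that acts on RNA. Plexins and semaphorins had 4 of 20, with Sema5a (5.34), Plxna4 (3.55) and Sema4d (3.35) beside Plxna1.

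Ubiquitin ligase genes named Rnf or Trim had 10 WT-only promoters and 12 members of 72 genes, 16.7% (8.92 to 27.3). Among them were Rnf24 (KO fold 5.32), Trim54 (5.13) and Trim32 (4.98). Trim54, a muscle RING protein, had no H2Bub1 in WT mESCs, 23.1% of the body in KO, and no Pol II in MEFs, whereas at Trim32 H2Bub1 covered 15.3% and 91.0% and the MEF Pol II folds were 11.5 and 13.4. Deubiquitylases of the USP and OTU families had 7 WT-only promoters and 4 members of 26 genes, 15.4% (4.36 to 34.9), with Otud7b (5.32) and Usp12 (4.47) the highest. Histone methyl writers and erasers had 4 of 18, Prmt5 (4.88), Setd3 (4.32), Setd7 (3.74) and Nsd2 (3.35), and remodellers and acetylation enzymes 3 of 15, Chd4 (3.75), Hdac3 (3.35) and Hdac5 (3.02).

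Zinc finger genes named Zfp had 41 WT-only promoters and 16 members of 221, 7.24% (4.19 to 11.5), close to the 7.10% of all genes, led by Zfp318 (5.98) and Zfp263 (5.33). Solute carriers had 7 of 227, 3.08% (1.25 to 6.25), and ion channels 9 of 169, 5.33% (2.46 to 9.87), with Grik3, Kcnj12 (4.53) and Kcng3 (4.26) the highest. WT-only promoters numbered 29 among solute carriers and 7 among ion channels. Homeobox genes of the Hox clusters had 1 WT-only promoter and 2 members of 34 genes, 5.88% (0.720 to 19.7), the neighbours Hoxd9 (4.46) and Hoxd8 (3.94). No member came from 1454 olfactory and vomeronasal receptor genes, 108 keratin and keratin-associated genes, 64 protocadherins, 32 collagens or 22 cadherins and catenins. WT-only promoters numbered 1, 1, 1, 7 and 2 in these lists. A count of 0 allows shares of up to 0.253%, 3.36%, 5.60%, 10.9% and 15.4% in these lists, by exact 95% limits.

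**Figure D3:**
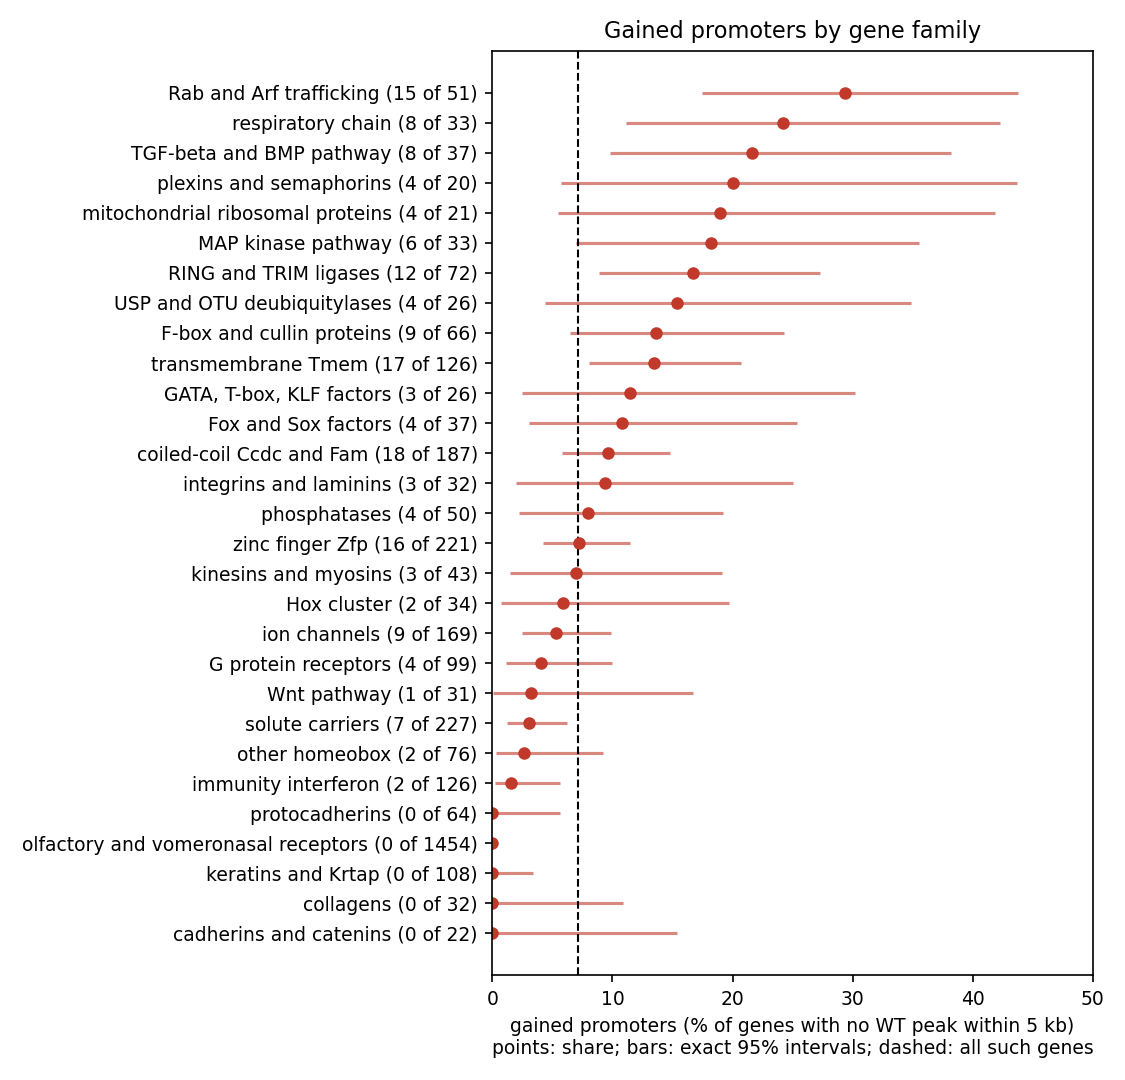
Gained promoters as percent of the genes with no WT Pol II peak within 5 kb, for 29 family lists, each with at least 20 such genes; not every list of that size is shown. Points are shares, bars exact 95% intervals for counting error, and the dashed line marks 7.10% over all such genes, with Rab and Arf trafficking highest and 5 lists at 0.

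To describe promoter sequence, a promoter was called CpG-rich when the 250 bases before the TSS and the 50 bases from it on had at least 50% GC and a CpG observed over expected ratio of at least 0.6. By this measure 644 members, 72.3% (95% interval 69.2 to 75.2), were CpG-rich, against 42.5% of all genes. The share was 78.1% at shared promoters, 65.3% at WT-only promoters and 21.0% at the 11501 promoters with no mESC Pol II peak in either genotype within 5000 bp, named promoters without Pol II. The difference between members and shared promoters was -5.81 percentage points (-9.06 to -2.69), and that between members and WT-only promoters 6.98 (3.08 to 10.8). Among the 3100 CpG-rich promoters with no WT peak, 20.8% were members. In the lists above, CpG-rich promoters made up 32 of the 51 Rab and Arf genes with no WT peak, 18 of the 33 respiratory chain genes and none of the 1454 receptor genes. Their part in the family counts was not tested.

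The GC box, searched as GGGCGG on both strands of the same window, was present at 69.2% of the members, 68.4% of the shared promoters and 43.7% of all promoters. The TATA box, searched as TATAAA, was present at 6.17% of the members and 12.7% of all promoters, the CCAAT box, searched as CCAAT, at 35.9% and 38.6%, and the ETS core, searched as CCGGAAG, at 16.7% and 11.0%. For these 4 motifs the interval of the difference between members and shared promoters included 0, as it did for the E-box CACGTG (10.3% of the members) and the CRE half-site TGACGT (12.8%). Of the 8 motifs searched, the remaining pair were less frequent at members than at shared promoters, the YY1 motif AAGATGG (5.84%, a difference of -2.09 percentage points, -3.72 to -0.214) and the NRF1 core GCATGCGC (4.60%, -2.18 points, -3.63 to -0.465). All promoters held these at 6.24% and 3.45%. The members' genes were longer, with a median of 29.4 kb (27.2 to 32.0) against 23.5 kb (22.2 to 24.5) at shared promoters and 14.7 kb at promoters without Pol II. They also lay further from other protein-coding genes than shared promoters did, at a median of 3594 bp (2980 to 4215) against 1234 bp (1105 to 1430). The demand for no WT peak within 5000 bp acts on this distance, so that it is a description.

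To see whether genes without a called WT Pol II promoter peak were marked in WT cells, the H2Bub1 lists were read over the gene bodies. In WT mESCs 713 members, 80.0% (95% interval 77.2 to 82.6), had H2Bub1 in the gene body, against 55.7% of all genes. Shared promoters reached 93.9%, WT-only promoters 84.5% and promoters without Pol II 28.8%. The difference was -13.9 percentage points from the shared promoters (-16.7 to -11.2), -4.52 from the WT-only promoters (-7.83 to -1.29) and 51.2 from the promoters without Pol II (48.3 to 53.9). In KO mESCs 856 members, 96.1% (94.6 to 97.2), were marked, against 62.1% of all genes, 98.1% of shared, 90.1% of WT-only and 35.7% of promoters without Pol II. The KO list held more peaks than the WT list over the whole genome, 48952 against 40979, and the part of this in the difference between genotypes was not tested. A peak anywhere in the gene body counted, and the genes differed in length. The median length was 29.4 kb at the members, 23.5 kb at shared promoters and 14.7 kb at promoters without Pol II. The part of gene length in these shares was not tested.

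The WT share depended on what was counted as marked. When H2Bub1 had to cover at least 10% of the gene body, 44.1% of the members were marked in WT and 72.5% in KO cells, against 32.8% and 46.4% of all genes and 63.0% and 82.6% of shared promoters. With a -log10 q of at least 3 in the H2Bub1 lists the members were at 19.3% and 76.9%. Under this limit the members were just below all genes in WT (22.2%) and above them in KO (44.9%), while shared promoters were at 58.2% and 89.6%.

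The members stood above the promoters without Pol II in both sequence classes. Among CpG-rich promoters, 81.5% of the members and 57.8% of the promoters without Pol II had H2Bub1 in WT mESCs, and among the other promoters 76.1% and 21.1%. Among genes at least 5000 bp from any other protein-coding gene, the share was 77.6% at the 393 members and 20% at promoters without Pol II.

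The comparison with shared promoters was also made within ranges of KO fold. In the range of KO fold from 3.5 to 4.0, H2Bub1 was present in WT mESCs at 77.6% of 304 members (72.5 to 82.2) and 92.1% of 824 shared promoters (90.1 to 93.9). Below 3.5 the shares were 77.0% and 91.4%, from 4.0 to 4.5 they were 83.3% and 93.4%, and from 4.5 up 84.8% and 95%. The last range has no upper limit, and shared promoters reach higher folds in it than members do. The members were thus the lower class in each of the 4 ranges.

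Along the genes, H2Bub1 at the members was most frequent just downstream of the TSS and less frequent upstream. In WT mESCs 5.50% of the members had the position 1000 bp upstream under a peak, 16.9% the TSS, 49.7% (46.4 to 53.1) the position 400 bp downstream and 23.0% the position 3000 bp downstream. At shared promoters the position 400 bp downstream was covered at 76.5% (75.3 to 77.6). In KO mESCs the position 1000 bp upstream was covered at 23.5% of the members, the TSS at 68.8%, the position 500 bp downstream at 88.3% (86.0 to 90.4) and the position 3000 bp downstream at 56.0%, and at shared promoters the highest share was 94.1% (93.4 to 94.7), at 400 bp. At the highest share the distance between members and shared promoters was thus smaller in KO than in WT mESCs, with both KO shares near their upper limit. At 1000 bp upstream, where shared promoters were at 17.7% in WT and 40.5% in KO, the distance was instead larger in KO. In MEFs the highest share at the members was 19.0% in WT, at 2000 bp, and 79.0% in KO, at 900 bp, between the WT-only promoters (18.1% and 72.7%) and the shared promoters (32.0% and 89.6%).

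**Figure D4:**
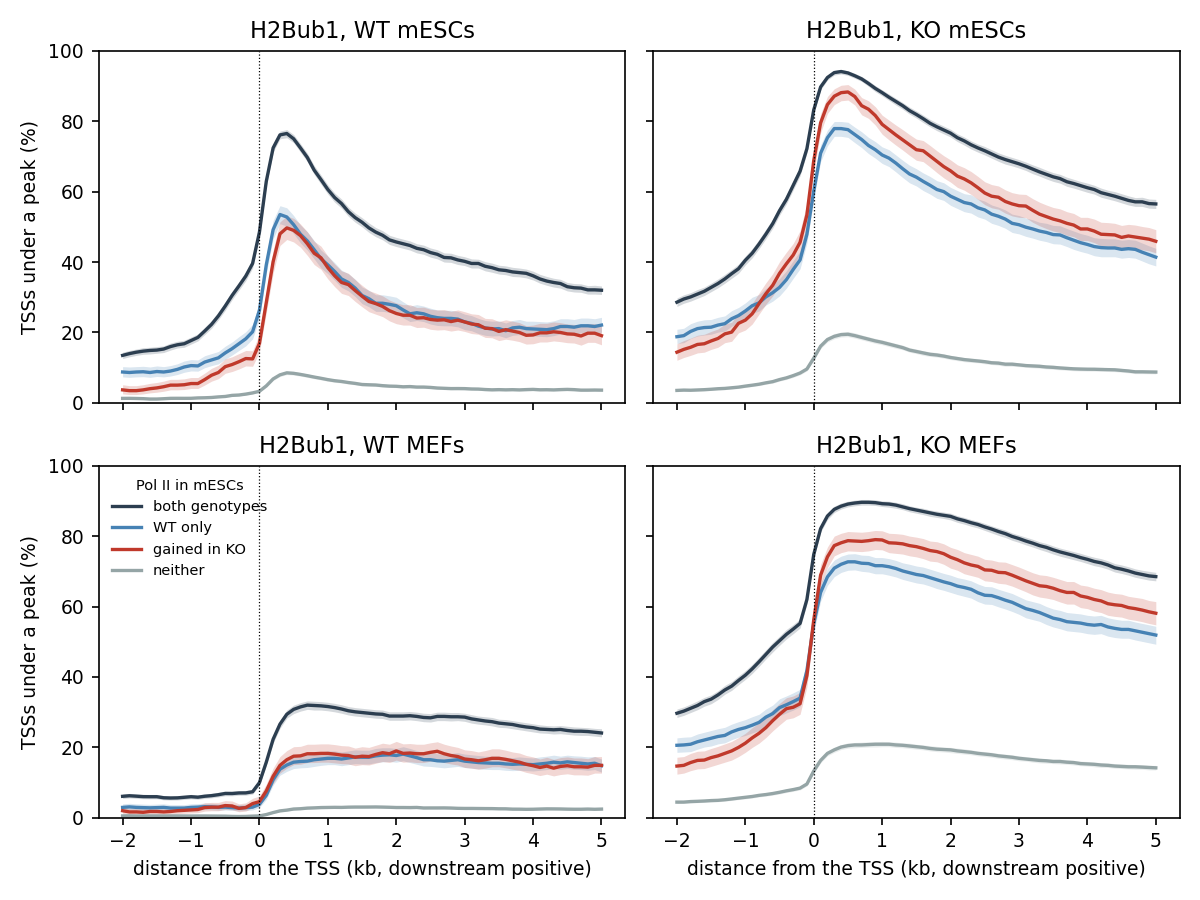
Percent of TSSs under an H2Bub1 peak by distance from the TSS in kb (downstream positive, steps of 100 bp) in the 4 H2Bub1 libraries, for promoters gained in KO mESCs, with Pol II in both genotypes, in WT only and in neither, with exact 95% bands. At the gained promoters the highest share is 49.7% in WT and 88.3% in KO mESCs.

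The covered share of the gene body at the members had a median of 7.07% (5.71 to 8.70) in WT and 29.3% (24.8 to 33.7) in KO mESCs. At shared promoters the medians were 19.8% and 43.1%, and at WT-only promoters 9.89% and 26.6%. The members and the WT-only promoters, which stand on opposite sides of the Pol II rule, both had the larger median in KO. The covered share was larger in KO than in WT at 813 members, 91.2% (89.2 to 93.0), against 54.2% of all genes. It was smaller at 47 members, 5.27%, against 9.83% of all genes. Genes with no H2Bub1 in either mESC library can be neither, and these were 34.8% of all genes but 3.37% of the members. The shares over all genes are lowered by this. Shared promoters had a larger share in KO at 84.7%, a difference of 6.50 percentage points (4.25 to 8.52), and WT-only promoters at 78.3%, a difference of 13 (10.1 to 15.8). The order of members and shared promoters was not stable. It was 87.0% against 87.1% for KO folds below 3.5, and with a -log10 q of at least 3 in the H2Bub1 lists it was 76.2% against 81.2%.

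The largest increase in covered bases was at Grik3, by 129 kb, and the next were at Dst, which encodes the cytoskeletal linker dystonin (102 kb), Frmd4b (76.0 kb), Sipa1l3 (73.6 kb) and Sema5a (68.7 kb). Of these 5 long genes, only Grik3 and Sipa1l3 reached over 60% of the gene body in KO mESCs, with 67.6% and 71.3%. In 148 members, 16.6% (14.2 to 19.2), H2Bub1 was called in KO mESCs only, against 9.53% of all genes, 5.03% of shared promoters, 9.59% of WT-only promoters and 11.0% of promoters without Pol II. Taken over the genes with no H2Bub1 in WT mESCs, the KO list marked 148 of 178 members, 83.1% (76.8 to 88.3), 285 of 347 shared promoters, 82.1% (77.7 to 86.0), and 21.5% of all such genes, so that members and shared promoters lay within each other's intervals. Bhlhe22 was among the 148, with 0% in WT and 56.8% in KO.

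In 5 members, 0.561%, H2Bub1 was called in WT mESCs only, against 3.13% of all genes and 0.830% of shared promoters. These were Nr2f1, an orphan nuclear receptor, with 14.6% of the body in WT, Acvrl1 with 9.23%, BC034090 with 3.05%, Tgfb1 with 1.32% and Rtn4r, the Nogo receptor, with 1.21%. A further 30 members, 3.37%, had no H2Bub1 in either genotype, against 34.8% of all genes and 1.09% of shared promoters, among them none of the 20 with the highest KO fold.

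Pol II beyond the promoter was rarely called. Among the 747 members of at least 10 kb, 111 had a KO Pol II peak in the gene body more than 5000 bp from the TSS, 14.9% (12.4 to 17.6), and 164 a WT peak there, 22.0% (19.0 to 25.1). For shared promoters the shares were 13% in KO and 24.0% in WT, and over all genes of this length 11.8% and 19.7%. These lists entered the rule, so that the values are a description. They show that the members, which by rule had no WT peak at the promoter, had body peaks more often in the WT list than in the KO list, as all genes had. A body peak can belong to an internal promoter: 777 members had no WT peak within 5000 bp of any annotated transcript start of the gene.

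In MEFs most members had Pol II in both genotypes. A promoter peak was present in WT MEFs at 798 members, 89.6% (87.4 to 91.5), against 55.3% of all genes, and in KO MEFs at 772, 86.6% (84.2 to 88.8), against 52.3%. Shared promoters reached 97.2% and 96.5%, WT-only promoters 85.9% and 81.6%, and promoters without Pol II in mESCs 27.7% and 24.2%. The members differed from the shared promoters in WT MEFs by -7.68 percentage points (-9.92 to -5.70) and from the WT-only promoters by 3.67 (0.876 to 6.37). Both MEF genotypes carried Pol II at 759 members, 85.2%.

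The folds in MEFs had medians at the members of 13 (12.4 to 13.6) in WT and 11.3 (10.9 to 11.8) in KO. At shared promoters they were 16.7 and 14.6. Each fold is relative to the background used for its own list, so levels between cell types are not compared. At the 759 members with both MEF folds the median log2 ratio of KO over WT was -0.20 (-0.24 to -0.14), and it was -0.21 at shared promoters. The log2 ratio was below 0 at 491 and above 0 at 268 of these members, and 56 were at least 2 times lower and 15 at least 2 times higher in KO. These counts were made for the members only. The quartiles of the log2 ratio were -0.54 and 0.14 at the members and -0.52 and 0.092 at shared promoters. The median was also below 0 at WT-only promoters (-0.25) and at promoters without Pol II in mESCs (-0.26), so that a lower fold in KO MEFs was not particular to the members.

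The highest WT MEF folds among the members belonged to Zyx, the focal adhesion protein zyxin (33.4 in WT and 26.1 in KO MEFs), the heparan sulfate proteoglycan gene Sdc2 (30.9 and 10.8), Nenf (30.8 and 14.8), the guanine nucleotide exchange factor gene Arhgef11 (30.2 and 22.4), and Gxylt2 (30.1 and 17.8). Their KO folds in mESCs ran from 2.54 at Nenf to 5.13 at Arhgef11.

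Applied to the MEF lists, the same rule called 12 members gained, 1.35% (0.698 to 2.34), against 1.15% of all genes, and 37 lost, with Pol II in WT MEFs and no KO peak within 5000 bp, 4.15% (2.94 to 5.68), against 3.74% of all genes. Most members could not be called gained in MEFs, since they had Pol II in WT MEFs. Of the genes with no WT MEF peak within 5000 bp, 12 of 87 members were gained, 13.8% (7.34 to 22.9), against 17.9% (11.8 to 25.5) of such shared promoters and 2.84% of all such genes. Of the genes with a WT MEF promoter peak, 37 of 798 members were lost, 4.64% (3.29 to 6.33), against 1.11% (0.848 to 1.42) at shared promoters and 6.77% of all such genes. The 10 members gained in both cell types with the highest KO MEF fold were 9330182L06Rik (15.1), the epithelial transcription factor gene Grhl1 (4.86), Igsf9 (4.62), the fatty acid elongase gene Elovl7 (3.96), the palmitoyltransferase gene Zdhhc23 (3.68), Bicdl1 (3.61), Erc2, a protein of presynaptic active zones (3.61), Arhgef26 (3.16), Adap1 (3.06) and the DNA glycosylase gene Neil3 (2.92). Their KO folds in mESCs ran from 3.07 at 9330182L06Rik to 4.53 at Neil3. At 9330182L06Rik no H2Bub1 was called in mESCs of either genotype, and 31.3% of the gene body was covered in KO MEFs.

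The 80 members with no promoter peak in either MEF library, 8.98% of the members against 43.2% of all genes, were set beside the 759 with both. CpG-rich promoters were 48.8% (37.4 to 60.2) of the 80 and 75.5% (72.3 to 78.5) of the 759. H2Bub1 was called in KO MEFs at 13.8% and 96.0% of them, against 54.3% of all genes, in a split that was itself made on MEF Pol II. In WT mESCs it was called at 72.5% (61.4 to 81.9) and 81.7% (78.7 to 84.4), with overlapping intervals. The median covered share in KO mESCs was 18.7% (10.7 to 25.6) and 32.6% (29.1 to 36.9), while the median KO fold in mESCs was 3.75 and 3.91. Among the 80 were Msc, Grik3, Olig2, Tfap2c, Kcnj12 and Kcng3. Olig2 was under H2Bub1 over 95% of its body in WT and 100% in KO mESCs, Tfap2c over 39.4% and 78.4% and Kcnj12 over 50.9% and 68.9%. None of these 6 genes had H2Bub1 in either MEF genotype. Of the 86 members with a divergent partner, 83 had MEF Pol II in WT and 83 in KO, 96.5% in each (90.1 to 99.3), against 88.8% (86.4 to 90.9) and 85.6% (83.0 to 87.9) of the members without one. The partner was itself a member for 85 of the 86. Both genes of a pair can have the same MEF peak, and the interval treats them as independent.

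In MEFs H2Bub1 was called in the gene body at 50.5% of the members in WT, against 31.7% of all genes and 63.6% of shared promoters, and at 85.1% in KO, against 54.3% and 93.1%. The covered share was larger in KO than in WT MEFs at 756 members, 84.8% (82.3 to 87.1), against 53.8% of all genes and 92.2% of shared promoters. All genes here include those with no H2Bub1 in either MEF library, which cannot have a larger share in KO. The median covered share of the members was 0.282% in WT and 39.9% in KO MEFs. In both cell types the members thus lay below the shared promoters in median H2Bub1 cover, in WT and in KO.

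**Figure D5:**
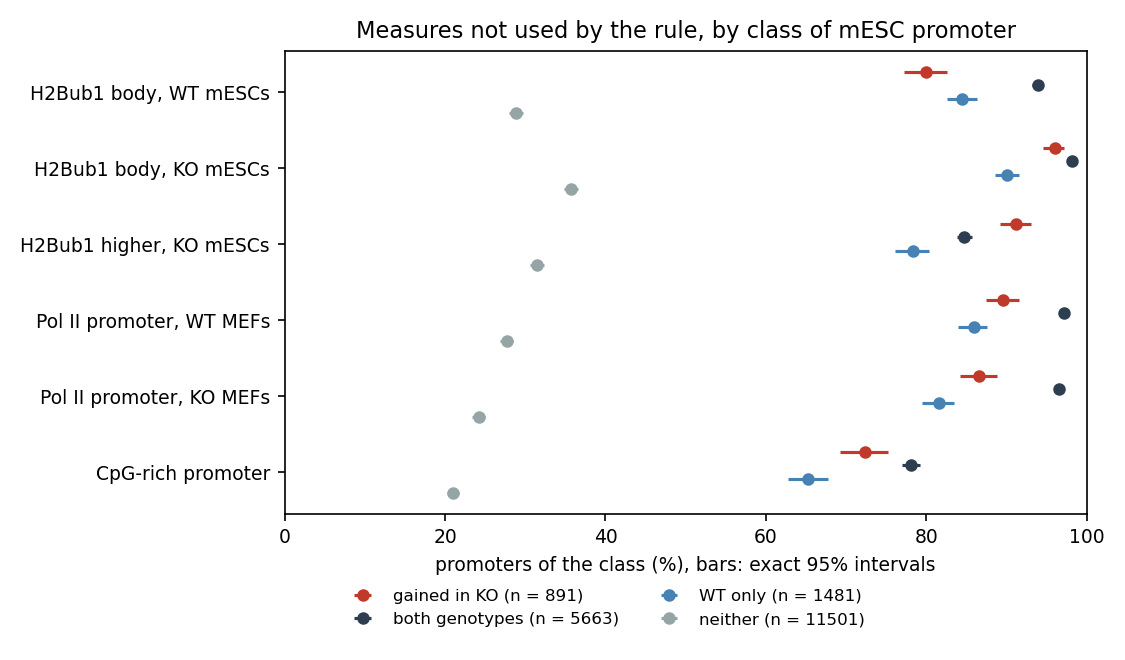
Percent of promoters with each measure that the rule did not use, by class of mESC Pol II, with exact 95% intervals for counting error. The gained promoters (80.0% with H2Bub1 in WT mESCs, 89.6% with Pol II in WT MEFs) lie closer to the promoters with Pol II in both genotypes or in WT only than to those with Pol II in neither (28.8% and 27.7%), with an H2Bub1 peak of any strength and size counted; at a -log10 q of at least 3 the WT H2Bub1 share is 19.3% at the gained promoters, 58.2% with Pol II in both, 26.4% in WT only and 4.17% in neither.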

How the data were processed

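ChIP-seq of Pol II and H2Bub1 in WT and KO mESCs and MEFs was available as 8 peak lists, 1 library per group. Another 8 of the 16 samples, inputs and Ser2-phosphorylated Pol II, were not analysed here. Per the submitters' processing notes, bcl2fastq 2.17.1.14, Bowtie 1.0.0 and MACS2 2.1.1.20160309 were used by the authors. The deposited lists give for each peak a fold, the linear ratio of the summit pileup over local background. The deposited values also hold the -log10 p and q of the peak caller and the offset of the summit, and the score column of the authors was not used. The control, the thresholds and the read depth of each list are not given in the sources used here. The study's methods name normalization (total mapped reads for Pol II, intergenic reads for H2Bub1) before peak calling, without saying how it entered the calls. The lowest -log10 q was 1.33 in the WT and 1.40 in the KO mESC Pol II list.

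Peaks were joined to autosomal protein-coding genes of GENCODE M21 on GRCm38, the build of the lists, with Python 3.11.15, pandas 2.3.3, numpy 2.4.6 and scipy 1.17.1. The members and all gene lists were chosen with earlier results of these data known. Shares carry exact Clopper-Pearson 95% intervals, medians exact binomial ones, and the scripts were tested on simulated data. H2Bub1 cover is the percent of the gene body under peaks. Named genes were the 20 members with the highest KO fold, up to 4 by KO fold in each family described, up to 10 also gained in MEFs, 5 by WT MEF fold, 5 by increase in H2Bub1 cover, those with H2Bub1 in WT only, those next to each distance limit, Atxn7l3 and cell type markers. All 8 members of the TGF-beta and BMP list, and Rab15 and Rab39, were named beyond this rule, the latter pair after their values were seen. Of 51 lists, 42 were families, of which 31 held a member. The 11 alternatives covered peak thresholds, list length, promoter window, distances, transcript starts, neighbouring genes and the H2Bub1 call. A few items are not reported here.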

Additional observations from a re-analysis of the deposited data

Results flagged for a closer look

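The state in fibroblasts was opposite to that in mESCs at 37 of the 891 members, which had Pol II in WT MEFs and no KO MEF peak within 5000 bp. They are listed because the call in the mESC lists and the call in the MEF lists had opposite directions, among them Adam22 (KO mESC fold 6.21, WT MEF fold 5.27), Bhlhe22 (5.72 and 6.34) and Acvrl1 (3.73 and 4.17). With 1 library per group the difference between the cell types was not tested. The share, 4.15% of all members, is close to the 3.74% of all genes that were lost in MEFs. Of the genes with a WT MEF promoter peak, 4.64% of the members and 6.77% of all genes were lost, so that the count does not mark the members.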

How the results depend on the processing

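Of 86 values recomputed under 11 alternatives, 69 moved by less than their interval or, for counts, stayed within 1.5 times, and 17 moved further. With a -log10 q of at least 3 the median KO fold was 3.94 (both Pol II lists, 966 promoters, 819 of them members) and 3.93 (KO list alone). With the WT list reduced to the number of KO peaks there were 1443 gained promoters at 1310 peaks, 83.2% with H2Bub1 in WT mESCs. With a window from 100 bp upstream to 300 bp downstream, 89.3% had KO MEF Pol II and 77.8% were CpG-rich. With no WT peak near any transcript start, 77.1% had H2Bub1 in WT mESCs. Genes at least 5000 bp from another gene gave 393 promoters at 393 peaks, 93.1% with more H2Bub1 cover in KO mESCs and 84.2% with KO MEF Pol II. With H2Bub1 over at least 10% of the gene body, 44.1% were marked in WT and 72.5% in KO mESCs. With a -log10 q of at least 3 in the H2Bub1 lists these were 19.3% and 76.9%, and 76.2% had more cover in KO, below the 81.2% of shared promoters. Fewer genes or peaks enter several of these settings by construction, and the cause of the other shifts was not tested. No paired analysis was possible because each group had 1 library. Read depth was not known, so a promoter without a called WT peak may hold Pol II below the peak caller's threshold.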
